A study of Mus musculus with 2 samples.

Results

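The genes of the cytosolic ribosomal proteins were followed in 24 mouse pseudoblastocysts. A gene was included when its GENCODE M21 symbol was Rpl or Rps followed by a number and at most 1 letter, or was Rplp0, Rplp1, Rplp2 or Rpsa, and when it was annotated as protein coding. This gave 80 of the 52366 genes in the count table, 49 for proteins of the large ribosomal subunit and 31 for proteins of the small subunit. The 3 genes with such a symbol that were not annotated as protein coding (Rpl32l, Rpl6l and Rps4l) were left out.

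Pseudoblastocysts are embryos with a cavity, collected here at 96 h after insemination without a check for an inner cell mass, and all came from B6D2F1 oocytes fertilized with ICR sperm. The study asked how the stage at which a blastomere is isolated affects the embryo it forms. The 1C embryos grew from whole zygotes freed of the zona pellucida, and the 2CB, 4CB and 8CB embryos each grew from 1 blastomere of a 2-cell, 4-cell or 8-cell embryo. There were 6 embryos per stage, and each was sequenced alone with the CEL-Seq2 protocol, which barcodes the 3' ends of polyadenylated RNA and gives every captured molecule a unique molecular identifier (UMI). By the labels, 1C shared a library pool with 8CB, and 2CB with 4CB. A difference between the pools and a difference of 2CB and 4CB from 1C and 8CB are therefore the same contrast and cannot be told apart. In whole embryos, fewer cells of a type and less RNA per cell cannot be told apart either. Nothing in the labels says which embryos shared a fertilization, a culture plate or a parental embryo. The 6 embryos of 2CB, 4CB or 8CB may include sister blastomeres, and the tests measure the spread between these embryos.

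A ribosome is built from ribosomal RNA and one copy of most ribosomal proteins, joined in the nucleolus to a large subunit, which forms peptide bonds, and a small subunit, which reads the mRNA. Most ribosomal protein mRNAs start with an uninterrupted stretch of pyrimidines (the 5' TOP sequence) that places their translation under mTORC1 and LARP1. In the preimplantation embryo maternal ribosomes are replaced by ones made from the embryo's own genes. Surplus ribosomal proteins are degraded, and free Rpl5 and Rpl11 in a particle with 5S RNA can hold the p53 inhibitor Mdm2.

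Because of that background, the letters around the start are shown first for the 5 genes with the longest pyrimidine run and then for 12 genes whose values are given below. Each line holds 30 bases around a RefSeq start site (15 before it, 15 from it on; GRCm38.p6; where a gene has several, the site with the longest run), written 5' to 3' on the gene's strand, with the longest unbroken run of C and T (the first where several are as long) in capitals.
Rpl7a (chr2:26910792-26910821, plus strand): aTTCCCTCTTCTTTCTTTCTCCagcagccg
Rpl27a (chr7:109519180-109519209, plus strand): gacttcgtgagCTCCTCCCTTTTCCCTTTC
Rpl34 (chr3:130730323-130730352, minus strand): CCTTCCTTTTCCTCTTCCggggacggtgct
Rpl35 (chr2:39005117-39005146, minus strand): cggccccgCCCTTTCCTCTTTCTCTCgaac
Rpl15 (chr14:18270972-18271001, minus strand): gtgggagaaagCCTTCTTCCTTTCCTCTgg
Rpl4 (chr9:64173372-64173401, plus strand): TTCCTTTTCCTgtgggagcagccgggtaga
Rpl13 (chr8:123102335-123102364, plus strand): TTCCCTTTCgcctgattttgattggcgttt
Rpl19 (chr11:98026909-98026938, plus strand): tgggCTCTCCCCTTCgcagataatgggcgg
Rpl39l (chr16:10170213-10170242, plus strand): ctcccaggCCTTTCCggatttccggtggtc
Rpl37 (chr15:5116598-5116627, plus strand): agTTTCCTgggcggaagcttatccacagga
Rpl22 (chr4:152324421-152324450, plus strand): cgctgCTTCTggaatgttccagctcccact
Rps28 (chr17:33824548-33824577, minus strand): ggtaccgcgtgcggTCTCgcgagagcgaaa
Rpl26 (chr11:68901551-68901580, plus strand): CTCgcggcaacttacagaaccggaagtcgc
Rpl23 (chr11:97782425-97782454, minus strand): acgaggTCCggtcacgtggctgagtgggcg
Rpl11 (chr4:136053379-136053408, minus strand): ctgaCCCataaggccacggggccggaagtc
Rpl10 (chrX:74270801-74270830, plus strand): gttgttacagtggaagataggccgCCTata
Rps13 (chr7:116334176-116334205, minus strand): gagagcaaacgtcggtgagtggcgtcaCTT
Of these windows, those of Rpl22, Rpl26 and Rpl37 lie before the GENCODE span of the gene, which for Rpl22 starts at 152325742. In all the windows the run was 3 to 21 bases long. It crossed the start site in Rpl7a, Rpl27a, Rpl34, Rpl35, Rpl15 and Rps28, lay after it in Rpl10 and Rps13, and ended before it in the others, so the capitals mark a run in the window and not the first bases of the mRNA.
RefSeq start sites were found for 60 of the 80 genes, 72 sites in all. A run of at least 8 pyrimidines lay within the 30 bases at 37.5% of these sites and at 12% of the 32851 start sites of all genes, and the median longest run was 6 and 4 bases. In the 250 bases before to 50 after the start, the letters CCGGAAG (the core bound by ETS factors, either strand) stood at 36.1% of the ribosomal protein sites and at 8.86% of all sites, and AAGATGGC (a YY1 core, either strand) at 9.72% and 2.75%. These letters are a description of the windows, and binding was not measured. The run was present at 8 of 22 sites of genes that were lower in 2CB and 4CB, at 14 of 35 sites of tested genes that did not pass the threshold and at 0 of 6 sites of genes that were higher, sets too small to compare.

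Total UMIs ranged from 70941 to 1507471 per embryo, and 661892 of 9610785 UMIs (6.89%) fell in the 80 genes. Their share of an embryo's UMIs was 6.55% ± 0.82 in 1C and 7.50% ± 0.71 in 8CB, against 7.10% ± 1.22 in 2CB and 6.10% ± 1.38 in 4CB (mean ± SD, n = 6). Single embryos lay at 5.50% to 7.79% in 1C and 6.56% to 8.42% in 8CB, against 4.76% to 8.03% in 2CB and 4.21% to 8.13% in 4CB, so the ranges of the 4 stages overlapped. The sum leaned on Rpl4, which lines the peptide exit tunnel and held 305576 UMIs, more than Rpl37 (69785), Rpl10 (20054) and Rpl13 (17505), also among the 5 highest, combined. Without Rpl4 the share was 3.92% ± 0.64 in 1C and 4.23% ± 0.49 in 8CB, against 3.91% ± 0.49 in 2CB and 3.37% ± 0.53 in 4CB. Rpl4 reached 53029 UMIs in 1 embryo and Rpl37 11270, and 6-base UMIs would allow 4096, so counts of this size may not be distinct molecules. UMIs mark 3' ends and are not given per length, so the order of these genes is an order of UMIs. Rpl4 (chromosome 9, 64173375 to 64178666, plus strand) also holds 5 small RNA genes within its span.

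Small subunit genes took 1.55% ± 0.20 of UMIs in 1C and 1.57% ± 0.11 in 8CB, against 1.31% ± 0.13 in 2CB and 1.14% ± 0.10 in 4CB. Every 4CB embryo (1.03% to 1.27%) was below every 8CB embryo (1.36% to 1.69%) and every 1C embryo (1.29% to 1.90%), and the 2CB embryos (1.10% to 1.43%) overlapped with 1C and 8CB. Large subunit genes without Rpl4 took 2.37% ± 0.45 in 1C and 2.66% ± 0.41 in 8CB, against 2.61% ± 0.40 in 2CB and 2.23% ± 0.45 in 4CB, with overlap among all stages.

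**Figure D1:**
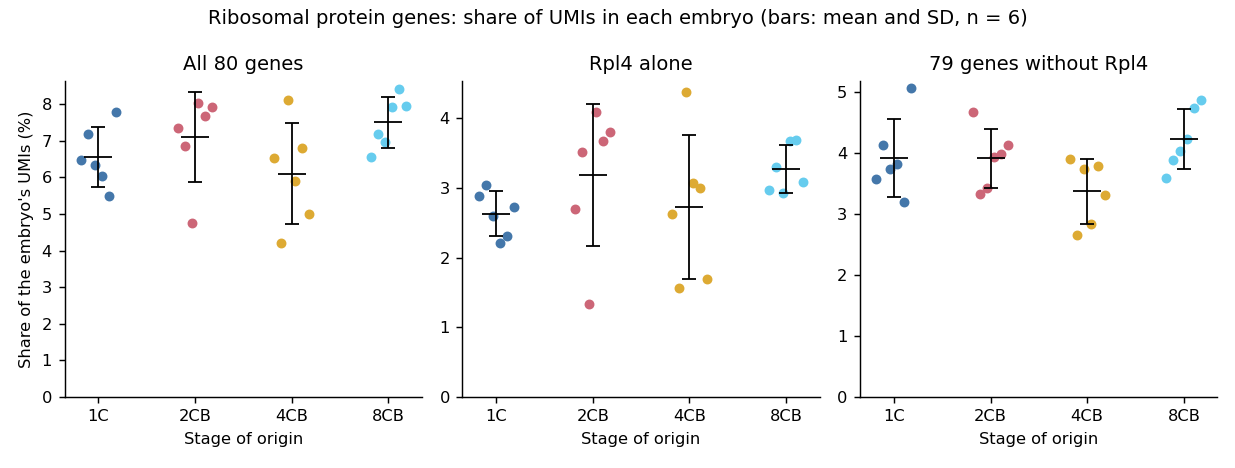
Share of each embryo's UMIs (%, vertical axis from 0) that fell in all 80 ribosomal protein genes, in Rpl4 alone and in the 79 other genes, by stage of origin; points are embryos, bars are the mean and SD (n = 6 per stage). The 4 stages overlap in all panels, and 1 2CB embryo has the lowest share of its stage, 4.76%.

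All 80 genes had at least 1 UMI and 66 had a UMI in every embryo. After the filter on low counts 67 were tested, among 5940 genes. Among the 13 that did not pass were Rpl15, Rpl21, Rpl23a, Rpl28, Rpl29, Rpl36, Rpl3l, Rpl7a, Rps18, Rps23, Rps4x and Rps6, with 2 UMIs for Rpl3l and between 52 (Rps6) and 277 (Rps23) for the others over all 24 embryos. Pseudogenes named after Rpl15 held 5693 UMIs beside the 186 of the gene, those of Rpl21 held 404 beside 106 and those of Rpl23a 179 beside 110, and whether those reads came from the genes was not tested. Rps6, the substrate of S6 kinase, had 0 to 22.4 normalized CPM in 1C and 0 to 22.2 in 8CB, against 0 to 5.4 in 2CB and 0 to 8.08 in 4CB, too few to compare. Ribosomal protein genes have many near-identical copies in the genome, and reads that fit several places could be lost or moved in counting. In 42 of the 80 genes at least 50% of the 50-base stretches in the last 300 bases of the main transcript also occurred in a transcript of another gene. These 42 genes had a median of 912.5 UMIs, against 2141 for the 15 genes with a smaller shared part and 3634 for the 23 without a shared stretch. Over the 80 genes the rank correlation of the shared part with UMIs was weak (Spearman's rho -0.13), and 9, 1 and 3 genes of these groups were not tested. Pseudogenes named after 58 of the genes held 16566 UMIs, which were not added to the genes except as a check. Of the genes described below, at least 50% of the end was shared for Rpl3, Rpl10, Rpl13, Rpl19, Rpl24, Rpl26, Rpl38, Rplp1, Rps13, Rps19, Rps27, Rps27a, Rps28 and Rpl41, and none for Rpl4, Rpl5, Rpl10l, Rpl11, Rpl37, Rpl39l, Rplp0, Rps25 and Rpsa. Another gene on the opposite strand overlapped 21 of the 80 genes, among them Rps14 (Ndst1), Rps28 (Kank3), Rps25 (Trappc4 and Ccdc84) and Rpl5 (Fam69a), and one on the same strand overlapped 5, among them Rpl13, Rpl19 and Rpl24.

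Of the 67 genes, 32 differed between 2CB with 4CB and 1C with 8CB, where 55.3% of all genes tested did, and 35 did not pass. With edgeR's quasi-likelihood test and an adjusted p below 0.1 over all 5940 genes, 26 were lower, where 24% of all genes tested were lower, and 6 were higher, where 31.3% of all genes were. The median log2 fold change (below 0 where 2CB and 4CB were lower) was -0.20 over the 67 genes and 0.12 over all genes tested. By subunit, 17 of 41 large and 9 of 26 small subunit genes were lower, and 3 of each were higher. Among all 4 stages at once, 25 of 67 genes differed, where 47.1% of all genes did. In 2 genes, among them Rpl26, every 2CB and 4CB embryo was below every 1C and 8CB embryo, as in 2.19% of all genes tested, and in 0 of 67 genes was every 2CB and 4CB embryo above, as in 3.5% of all genes tested. Of the called genes, 18 lower and 1 higher (Rpl37) were also called under each of 34 alternatives, among them DESeq2, other filters and each embryo left out. By shared ends, 8 of 20 tested genes were lower where none was shared and 13 of 33 where at least 50% was.

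Cell type markers also differed along the same division, in both directions within each list, and depth differed between stages. The median embryo had 519932 UMIs in 2CB and 216325 in 4CB, against 244312 in 1C and 313283 in 8CB, so that 2CB was the deepest stage and 4CB, with 1 embryo of 1130360 UMIs, had the lowest median. Thinned to 70941 UMIs per embryo, 19 of the ribosomal protein genes were lower and 5 higher. The shares of all genes after thinning are not given here, so these counts cannot be set against them. Without thinning, 31.3% of all genes tested were higher and 24% lower in 2CB and 4CB. Of 9 trophectoderm markers, 7 were higher and 2 lower. Summed levels of marker lists are UMIs per 1e6 of all UMIs of an embryo, without TMM scaling. They are not on the scale of normalized CPM. For trophectoderm the sum was 2373 to 5166 in 2CB and 2517 to 5288 in 4CB, against 563 to 991 in 1C and 631 to 1063 in 8CB. Of 7 epiblast and inner cell mass markers, 5 were tested, 2 higher and 3 lower, with sums of 679.6 to 1262 in 1C and 536 to 1943 in 8CB, against 305 to 942 in 2CB and 245 to 791 in 4CB. Of 7 primitive endoderm markers, 5 were tested, 4 higher and 1 lower, with sums of 697 to 1141 in 1C and 639.6 to 1090.4 in 8CB, against 871 to 1699.6 in 2CB and 791 to 1595 in 4CB. None of 6 oocyte and polar body genes was tested, and their summed level was 26 to 103 in 1C and 9.11 to 68.2 in 8CB, against 2.54 to 22 in 2CB and 0 to 19.1 in 4CB. Of 6 cumulus genes, 4 were at 0 in every embryo, and the sum reached 16 in 1C and 5.61 in 8CB, against 1.55 in 2CB and 3.99 in 4CB. The part of depth and of these cell types in the ribosomal protein result was not tested.

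**Figure D2:**
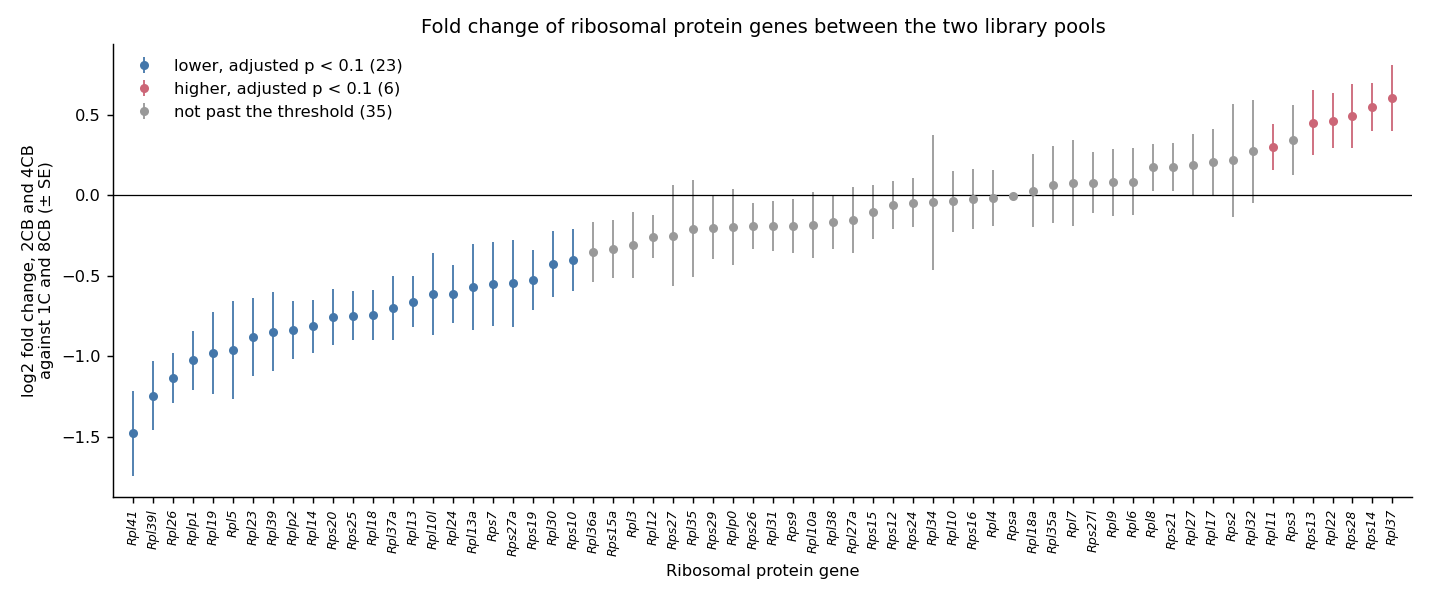
Log2 fold change of 64 of the 67 tested ribosomal protein genes for 2CB with 4CB against 1C with 8CB (vertical axis, ± SE), ordered by value. Blue points are the genes lower (23 of the 26) and red points the 6 genes higher at an adjusted p below 0.1, grey points the 35 others; values run from -1.48 (Rpl41) to 0.61 (Rpl37), and Rpsa, near 0, has no SE.

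Levels are given as normalized CPM, UMIs per 1e6 UMIs of the tested genes after TMM scaling, and a gene with no overlap comes first. Rpl26, near the exit of the peptide tunnel (chromosome 11, 68901583 to 68906989, plus strand), ran from 299 to 536 normalized CPM (median 441) in 1C and 366 to 641 (median 462) in 8CB, against 161 to 275 (median 239) in 2CB and 149 to 215 (median 177) in 4CB. All 12 embryos of 2CB and 4CB were below all 12 of 1C and 8CB, with a log2 fold change of -1.13 ± 0.15 (SE), adjusted p = 6.23e-07. In the Rpl26 transcript, 64.1% of the end is shared with other genes.

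Falls with partial overlap were larger in some cases. Rpl39l, a paralog of the tunnel protein Rpl39 known from the testis (chromosome 16, 10170226 to 10174911, plus strand), ran from 402 to 1066 normalized CPM (median 670.0) in 1C and 559 to 1286 (median 713) in 8CB, against 197 to 696 (median 282) in 2CB and 167 to 422 (median 304) in 4CB. One 2CB embryo, at 696, lay within the range of 1C and 8CB, 1 4CB embryo, at 422, was just above the lowest 1C embryo, and the others were below both ranges, with a fold change of -1.24 ± 0.21 (SE), adjusted p = 1.87e-05. Rplp1, one of the acidic proteins of the stalk that recruits elongation factors (chromosome 9, 61913284 to 61914542, minus strand), ran from 672 to 1462 normalized CPM (median 1016) in 1C and 720.1 to 1657 (median 974) in 8CB, against 398 to 758 (median 614) in 2CB and 319 to 549 (median 477) in 4CB. The sides met only between 672 and 758, with -1.02 ± 0.18 (SE), adjusted p = 3.14e-05.

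Rpl19, which forms part of a bridge between the subunits, ran from 53.9 to 194 normalized CPM (median 108) in 1C and 14.3 to 146 (median 109) in 8CB, against 32.7 to 71.6 (median 52.3) in 2CB and 34.5 to 71.5 (median 53.9) in 4CB. One 8CB embryo was at 14.3, the lowest of all, and the sides overlapped, with -0.98 ± 0.25 (SE), adjusted p = 0.00222. Rpl23, a core protein of the large subunit, ran from 142 to 448 normalized CPM (median 235) in 1C and 156 to 388 (median 192) in 8CB, against 105 to 229 (median 119.8) in 2CB and 53.4 to 180.4 (median 130.3) in 4CB. All 4 ranges overlapped, with -0.88 ± 0.24 (SE), adjusted p = 0.00336. The call of Rpl19 did not hold after thinning. Rpl41, one of the smallest proteins known and below the 50 CPM set for naming, had the largest fall of all, from 32.9 to 134 in 1C and 33.3 to 90 in 8CB to 18.9 to 38.4 in 2CB and 13.4 to 33.9 in 4CB (-1.48 ± 0.26 (SE), adjusted p = 3.52e-05), and was named after its values were seen.

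The 6 genes that were higher had smaller fold changes, from 0.30 to 0.61. Rpl37, a zinc-binding protein of the large subunit (chromosome 15, 5116645 to 5119140, plus strand), ran from 3419.5 to 8444 normalized CPM (median 4861) in 1C and 4324 to 10477 (median 5554) in 8CB, against 7574 to 15699 (median 9096) in 2CB and 3750.4 to 11411 (median 9201) in 4CB. Ranges overlapped widely in 4CB and 8CB, and the fold change was 0.61 ± 0.21 (SE), adjusted p = 0.0157. Rps14, a small subunit protein whose loss marks human 5q- syndrome, ran from 141 to 255 normalized CPM (median 204) in 1C and 187 to 266 (median 244) in 8CB, against 293 to 393 (median 349.6) in 2CB and 222 to 345 (median 289) in 4CB. Every 2CB embryo was above every 1C and 8CB embryo, while 4CB overlapped with 8CB and 1C, with 0.55 ± 0.15 (SE), adjusted p = 0.00321. Rpl22, an RNA-binding protein that is dispensable for translation, ran from 293 to 719 normalized CPM (median 453) in 1C and 348 to 613 (median 523) in 8CB, against 532 to 856 (median 735) in 2CB and 407 to 876 (median 684) in 4CB. Its sides overlapped, with 0.46 ± 0.17 (SE), adjusted p = 0.0239.

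Rps28, a small protein near the mRNA channel, ran from 172 to 344 normalized CPM (median 278) in 1C and 223 to 731 (median 407) in 8CB, against 310.0 to 704 (median 470.4) in 2CB and 298 to 579.6 (median 517) in 4CB. Ranges of all stages met, with 0.49 ± 0.20 (SE), adjusted p = 0.04. Rps13, of the small subunit, ran from 50.9 to 121 normalized CPM (median 63.4) in 1C and 43 to 140.0 (median 89.1) in 8CB, against 93.7 to 165 (median 112) in 2CB and 80.1 to 151 (median 103) in 4CB. The sides overlapped, with 0.45 ± 0.20 (SE), adjusted p = 0.0655, and with the UMIs of its 7 named pseudogenes added the fold change was -0.052. Rpl11, of the 5S particle, ran from 542 to 814 normalized CPM (median 635) in 1C and 635 to 787 (median 672) in 8CB, against 729 to 1255 (median 963) in 2CB and 543 to 948 (median 746) in 4CB. The 2CB median was the highest and the sides overlapped, with 0.30 ± 0.14 (SE), adjusted p = 0.0832. The call of Rps13 was lost when 1 of 5 embryos was left out (1C 2 and 5, 2CB 2, 4CB 5, 8CB 4; log2 fold changes from 0.39 to 0.42) and that of Rpl11 when 1 of 13 was (1C 1, 3, 4 and 5; 2CB 1, 4 and 6; 4CB 1, 5 and 6; 8CB 1, 2 and 4; 0.25 to 0.29). Without a filter on low counts only Rpl37 of the 6 stayed past the threshold.

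**Figure D3:**
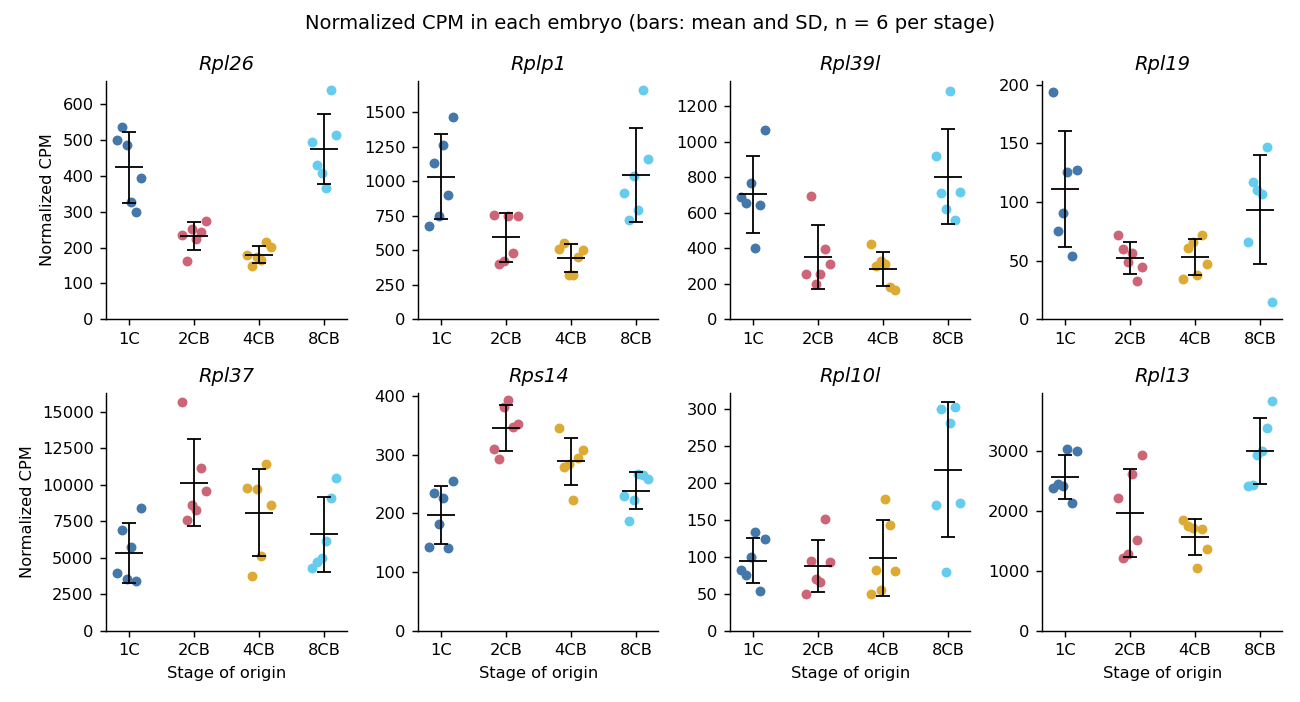
Normalized CPM (vertical axes from 0) of 8 ribosomal protein genes in each of the 24 embryos, by stage of origin; points are embryos, bars the mean and SD (n = 6 per stage). Rpl26 does not overlap between 2CB with 4CB and 1C with 8CB, and Rpl10l has its highest mean in 8CB.

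The division can also be read from 2 comparisons that share no embryo. In 2CB against 1C, 14 of 67 genes were lower (17.5% of all genes tested) and 8 higher (24% of all), with a median of -0.09 beside 0.10 over all genes. These 22 calls became 12 with no filter on low counts. In 4CB against 8CB, 24 were lower (17.0% of all genes tested) and 0 higher (23.2% of all), with a median of -0.37 beside 0.14 over all genes. At an unadjusted p below 0.05, 0 of the 67 genes were higher as well, where 1444 of all 5940 genes tested were. Lower in both were 13 genes, among them Rpl14, Rpl18, Rpl19, Rpl23, Rpl26, Rpl37a, Rpl39l, Rpl41, Rplp1, Rplp2 and Rps25, where 11% of all genes tested were, and higher in both were 0, where 16.2% of all genes were. The 8 genes higher in 2CB against 1C were Rpl37 (0.93), Rps28 (0.84), Rps14 (0.82), Rps3 (0.74), Rps13 (0.68), Rpl22 (0.55), Rpl11 (0.53) and Rps21 (0.49). In 4CB against 8CB their log2 fold changes ran from -0.14 (Rps21) to 0.37 (Rpl22), none past the threshold.

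The difference between the 2 comparisons was tested itself. It passed for 0 of 67 genes (0.0% of all genes tested) and for 0 genes with DESeq2. At an unadjusted p below 0.05 it passed for 1 gene, Rps21, and for 532 of all 5940 genes tested. Its median over the 67 genes was 0.40, beside 0.03 over all genes, and 55 of 67 genes were lower in 4CB against 8CB than in 2CB against 1C. Rpl10l, at -0.10 ± 0.36 (SE) in 2CB against 1C and -1.13 ± 0.36 (SE) in 4CB against 8CB, had the most positive difference. With the stages crossed, 4CB against 1C had 19 lower (17.5% of all genes tested) and 2 higher genes (23.5% of all), and 2CB against 8CB had 16 lower (16.4% of all) and 3 higher (22.0% of all).

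**Figure D4:**
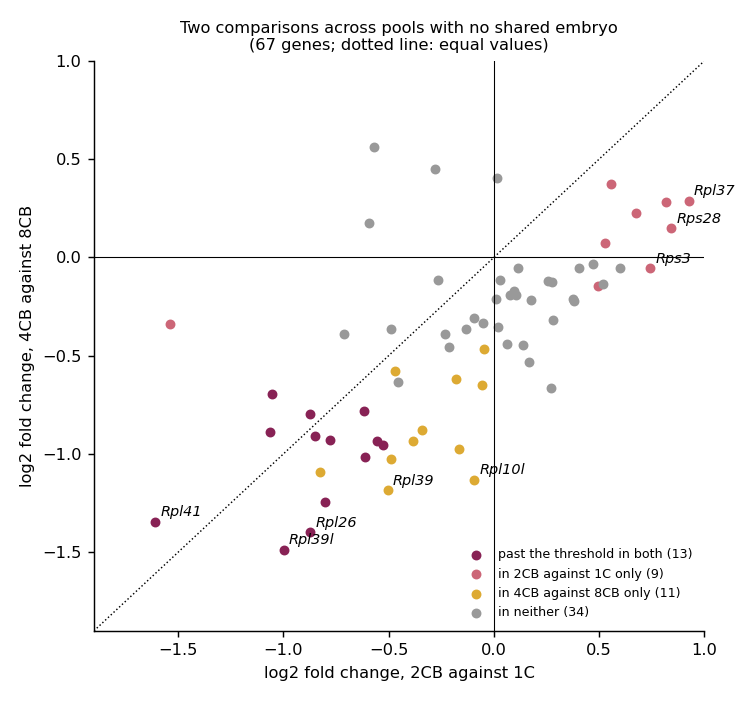
Log2 fold change of each of 67 ribosomal protein genes in 2CB against 1C (horizontal axis) and in 4CB against 8CB (vertical axis), which share no embryo; the dotted line marks equal values. Dark points are the 13 genes past the threshold in both, and 55 of the 67 genes lie below the line.

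Comparisons within a pool leave the pool out. In 8CB against 1C, 0 of 67 genes passed the adjusted threshold with edgeR or DESeq2 (0.0% of all genes tested). At an unadjusted p below 0.05, 2 genes were higher (3.79% of all) and 1 lower (5.47% of all). Rpl10l, the retrogene paralog of Rpl10 known from spermatogenesis, was at 53.9 to 134 normalized CPM in 1C and 80 to 302 in 8CB. Of its 6 8CB embryos, 5 were above the whole 1C range, with 1.20 ± 0.37 (SE), adjusted p = 0.241. Rps28 was at 172 to 344 in 1C and 223 to 731 in 8CB, with overlap and 0.60 ± 0.29 (SE), adjusted p = 0.51. The median over the 67 genes was 0.11 (22 negative), beside 0.00 over all genes. It lay between 0.043 and 0.25 with single embryos left out, at 0.043 without 1C 5, 0.25 without 1C 6 and 0.17 without 8CB 5.

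In 4CB against 2CB, again 0 of 67 genes passed with edgeR or DESeq2, where 0.0337% of all genes tested did. At an unadjusted p below 0.05, 0 genes were higher (2.05% of all) and 4 lower (2.37% of all). The 3 lowest in p were Rps21 (858 to 1319.7 normalized CPM in 2CB, 488 to 928 in 4CB; -0.61 ± 0.21 (SE), adjusted p = 1), Rps25 (302 to 541 and 237 to 373; -0.48 ± 0.22 (SE), adjusted p = 1) and Rpl24 (111 to 243 and 97.9 to 143; -0.55 ± 0.25 (SE), adjusted p = 1). The ranges of each overlapped. Of the 67 fold changes 57 were negative, with a median of -0.23 beside -0.01 over all genes. The median was -0.36 with no filter on low counts and -0.38 with TMM factors taken from all genes, the latter tried after the data were seen. The SE of a single gene in this comparison had a median of 0.27, and the genes share the same 12 embryos, so the 57 are not independent.

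**Figure D5:**
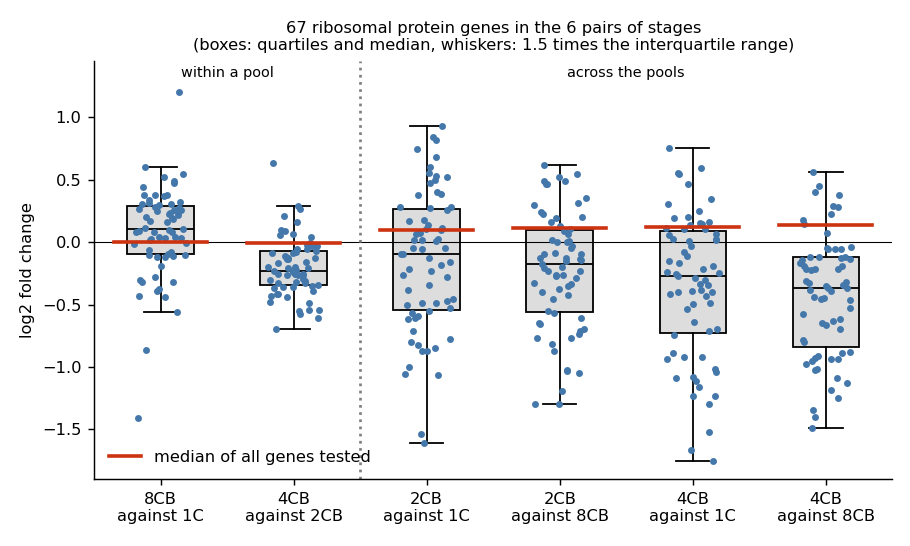
Log2 fold changes of 67 ribosomal protein genes (points; boxes are quartiles and median, whiskers 1.5 times the interquartile range) in the 6 pairs of stages, with the median of all 5940 genes tested as a red line. The ribosomal protein median lies above the red line in 8CB against 1C and below it in the other pairs.

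Pairs of paralogs are set side by side. Rpl39, the X-linked protein of the tunnel, had 291 ± 223 normalized CPM in 1C and 432 ± 146 in 8CB, against 209 ± 54.1 in 2CB and 191 ± 34.9 in 4CB (mean ± SD, n = 6) and was lower in 2CB and 4CB (-0.84 ± 0.25 (SE), adjusted p = 0.00553), as Rpl39l was. A pseudogene named after Rpl39 held 1402 UMIs beside the 2491 of the gene. Rpl10, which completes the large subunit before it joins the small one, had 2004 ± 846 in 1C and 2582 ± 874 in 8CB, against 2148 ± 569 in 2CB and 2299 ± 562 in 4CB (-0.04 ± 0.19 (SE), adjusted p = 0.893), while Rpl10l passed (-0.61 ± 0.26 (SE), adjusted p = 0.0483). Rpl10l had 94.8 ± 30.4 in 1C and 217 ± 90.8 in 8CB, against 87.4 ± 35.4 in 2CB and 98 ± 51.2 in 4CB, with the highest mean in 8CB and overlap between 8CB and each other stage. Against 1C its fold change was -0.10 in 2CB and 0.07 in 4CB, and neither passed. The end of the Rpl10 transcript is shared whole with other genes. Rps27 and Rps27l, the second a known p53 target, had -0.25 ± 0.32 (SE) and 0.08 ± 0.19 (SE), and neither passed. Rpl3, at the peptidyl transferase centre, had -0.31 ± 0.21 (SE) and did not pass, and its muscle paralog Rpl3l had 2 UMIs in all. A difference between the members of a pair was not tested.

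Genes with known roles outside the count of subunits gave mixed values. Of the stalk, Rplp1 and Rplp2 were lower, Rplp2 at 369 ± 90.2 normalized CPM in 1C and 294 ± 71.7 in 8CB, against 201 ± 29.9 in 2CB and 171 ± 55.5 in 4CB (-0.84 ± 0.18 (SE), adjusted p = 0.000311). Rplp0, which anchors them, had 42 ± 15 in 1C and 58.2 ± 9.52 in 8CB, against 51.3 ± 14.7 in 2CB and 35.6 ± 15.8 in 4CB, and did not pass (-0.20 ± 0.24 (SE), adjusted p = 0.518). Of the 5S particle, Rpl5 was lower, from medians of 47.5 in 1C and 50 in 8CB to 35.6 in 2CB and 28.3 in 4CB, with 1 1C embryo at 209 (-0.96 ± 0.30 (SE), adjusted p = 0.0103), and its partner Rpl11 was higher. Rps19, mutated in Diamond-Blackfan anaemia, was lower (-0.52 ± 0.19 (SE), adjusted p = 0.021). Rps27a, made as a fusion with ubiquitin, passed narrowly (-0.55 ± 0.27 (SE), adjusted p = 0.094). Its call was lost with DESeq2 and with no filter, and when 1 of 15 embryos was left out (1C 1, 3 and 6; 2CB 1, 3, 5 and 6; 4CB 1, 2, 3 and 6; 8CB 1, 2, 3 and 4), while its fold change stayed between -0.63 and -0.45 with single embryos left out. Rpl38, linked to translation of Hox mRNAs, had -0.17 ± 0.16 (SE) and did not pass. Rpsa, first known as a laminin receptor, was at 33.5 to 101 normalized CPM in 1C and 8.94 to 71.7 in 8CB, against 22.8 to 51.2 in 2CB and 30.9 to 65.3 in 4CB. Its stages overlapped, and its fold change, near 0, did not pass (adjusted p = 0.997).

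Among the genes with the most UMIs, Rpl4 ran from 22898 to 31777 normalized CPM (median 29046) in 1C and 31431 to 41512 (median 33744) in 8CB, against 13809 to 45001 (median 37837) in 2CB and 16568 to 45267 (median 29535) in 4CB. The 2CB and 4CB embryos spread more widely than the others, and the fold change did not pass (-0.02 ± 0.17 (SE), adjusted p = 0.944). Rpl13, of the large subunit, was at 2572 ± 365 in 1C and 3006 ± 550.3 in 8CB, against 1969 ± 728 in 2CB and 1573 ± 303 in 4CB, with every 4CB embryo below every 1C and 8CB embryo (-0.66 ± 0.16 (SE), adjusted p = 0.00118). Across embryos of a stage the ribosomal protein genes varied less than most, with a median SD of 0.41 on the log2 scale beside 0.73 over all genes tested, which include many with lower counts. Within stages the median correlation between 2 of the genes was 0.18 over 2211 pairs and 24 embryos (71.7% positive), beside 0.0089 over pairs of all genes, and the pairs share embryos and depth.

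Other genes of the translation machinery were read from the same fit, with log2 fold changes ± SE of 2CB with 4CB against 1C with 8CB. Of 7 ribosomal protein genes outside the symbol rule 4 were tested and 2 were lower, Rpl36al (-1.14 ± 0.20) and Fau (-0.33 ± 0.16), while the scaffold protein Rack1 did not pass (0.10 ± 0.14). Of 16 other genes with 5' TOP mRNAs 15 were tested, 7 lower and 2 higher, with a median of -0.40, where 24% of all genes tested were lower and 31.3% higher, with a median of 0.12. Npm1, the nucleolar chaperone nucleophosmin, had the largest fall (-1.86 ± 0.17). The elongation factor genes Eef2 (-0.39 ± 0.14) and Eef1b2 (-0.45 ± 0.22) were lower, and Eef1a1 (0.97 ± 0.40) and Eef1g (0.48 ± 0.19) higher. Of 18 genes for RNA polymerase I and 5S transcription 11 were tested, 7 lower and 0 higher, with a median of -0.56 beside the same shares of all genes (24% and 31.3%), among them Taf1d (-1.55 ± 0.19) and Polr1c (-1.21 ± 0.19), while Ubtf did not pass (0.01, adjusted p = 0.977).

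Of 6 chaperones that escort ribosomal proteins 3 were tested, and Ltv1 was lower (-0.66 ± 0.24), 1 of 3 beside 24% of all genes tested. Of 14 genes of mTORC1, S6 kinase, LARP1 and MYC 9 were tested, of which Mtor (0.72 ± 0.34), Eif4ebp2 (0.71 ± 0.28) and Mycn were higher and Rheb was lower (-0.80 ± 0.34), and 3 of 9 higher is near the 31.3% of all genes tested. Mycn was at 31.3 ± 11.1 normalized CPM in 2CB and 59.6 ± 13.9 in 4CB against 0.545 ± 1.34 in 1C and 1.73 ± 2.83 in 8CB. Larp1 did not pass (-0.13 ± 0.24). Of 4 genes of the p53 response Trp53 (-0.88 ± 0.23) and its target Cdkn1a (-2.66 ± 0.49) were lower, and Mdm2 (0.11 ± 0.27) and Mdm4 (0.12 ± 0.32) did not pass, so 2 of 4 were lower beside 24% of all genes tested. In each of these lists 0 genes passed in 8CB against 1C and in 4CB against 2CB.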

How the data were processed

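CEL-Seq2 libraries were made from single embryos. The authors aligned reads to GRCm38 with HISAT2 2.2.6 and counted UMIs with HTSeq 0.6.1, and the deposited values are whole-number UMI counts per gene and embryo. The annotation release, strand setting and UMI length are not given in the sources used here, so reads of the 21 genes that overlap a gene on the opposite strand may be mixed. Of the table, 24 columns of morulae were not used.

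The ribosomal protein genes and all lists were chosen with earlier results of these data known. Counts were tested with edgeR 4.0.16 (R 4.3.3): filterByExpr, TMM (factors 0.928 to 1.07), 1 mean per stage, quasi-likelihood F test (SE as fold change over the root of F, not given for log2 fold changes within 0.01 of 0), Benjamini-Hochberg adjustment over 5940 genes. Normalized CPM (counts per 1e6) refer to the UMIs of these genes. Scripts were tested on simulated data. Alternatives used DESeq2 1.42.0, other filters, thinning, a replicate block and each embryo left out.

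Some genes are not reported here. Named genes were the largest called fold changes with a mean of at least 50 CPM (up to 8 each way), the 3 lowest p within each pool, the 5 with most UMIs, those without overlap, paralogs, known roles and those not tested.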

Additional observations from a re-analysis of the deposited data

Results flagged for a closer look

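In 8 of 144 groups of 6 embryos, 1 embryo stood apart by Dixon's 95% criterion, where chance gives about 1 in 20. In 1C the highest embryo was at 121 normalized CPM for Rps13 (median 63.4), at 3699 for Rpl10 (median 1628), at 209 for Rpl5 (median 47.5) and at 101 for Rpsa (median 40.4). For Rps13, Rpl10 and Rpsa this was the same embryo, 1C 6, and for Rpl5 it was 1C 2. The median level of the ribosomal protein genes in 1C 6, on the log2 scale relative to the mean of all embryos, was 0.54, beside -0.23 to 0.091 in the other 1C embryos. Without 1C 6, 21 genes were lower in 2CB and 4CB and 6 higher. In 2CB the highest was at 70.4 for Rpl5 (median 35.6), and 1 embryo had the lowest share of UMIs in the 80 genes, 4.76% (median 7.51%), and in the large subunit genes, 3.65% (median 6.15%). In 8CB the highest was at 320.5 for Rpl24 (median 207). With single 2CB embryos left out, the mean share lay between 6.91% and 7.57%.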

How the results depend on the processing

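Over 10 alternatives and with each embryo left out in turn, lower genes in 2CB and 4CB numbered 21 to 27 with single embryos left out and, over the alternatives, 19 (thinned) to 29 (filter of 5 UMIs in 12 embryos, ribosomal protein UMIs left out of library sizes, or pseudogene UMIs added), against 26. Higher genes numbered 4 to 6 with single embryos left out and 1 with no filter, against 6, and with no filter the genes called in 2CB against 1C fell from 22 to 12. The share of UMIs without Rpl4 was 3.92% in 1C and 4.23% in 8CB, against 3.91% in 2CB and 3.37% in 4CB. Genes near 0 changed sign: Rpl4 was at 0.024 with DESeq2 and 0.023 with its size factors (-0.11 to 0.064 without single embryos), Rpl10 at 0.0095 and 0.011 (-0.11 to 0.093), and Rpsa at 0.055 and 0.039, at 0.17 thinned and at 0.037 with a replicate block (-0.12 to 0.17). Of 22 genes that the naming rule took and that had a call, 16 kept it with no filter and at least 19 under each other alternative. Rps13 with pseudogene UMIs was at -0.052. The shares of all genes called under each alternative are not given here. The causes of these changes were not tested.

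Embryo numbers do not pair the stages: over 36 pairs with the same number the median correlation of deviations was -0.02, and 1 of 24 embryos was closest to one with its own number. With a replicate block 24 genes were lower and 5 higher in 2CB and 4CB, 21 were called in 2CB against 1C and 0 within either pool. TMM factors from all genes, added after the data were seen, gave 26 lower and 4 higher. Low counts left 13 genes untested.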
